A study of Mus musculus with 3 samples.

Results

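The ovarian surface epithelium (OSE) is the thin epithelial layer, akin to the mesothelium that lines the body cavity, that covers the ovary. In the cell annotation deposited with a single-cell RNA study of the mouse ovary, OSE is the 1 name of 20 that is left once 19 immune, endothelial, fibroblast, myofibroblast and granulosa names are set aside. It holds 81 of 14353 cells. The deposited names came from clustering these genes, so the genes that define OSE below describe the class and test nothing.

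As background, OSE cells combine keratins with genes shared with the mesothelium, such as mesothelin and uroplakins, and lie on a basement membrane above the ovarian stroma. The layer is broken at each ovulation and closes again over the wound, and cells with the R-spondin receptor Lgr5 have been described in it as progenitors. Immediate early genes, which lead the comparison with age below, encode transcription factors and RNA-binding or phosphatase proteins that many cell types switch on within minutes of a growth factor, a wound or another stress.

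The study addressed metformin, an antidiabetic drug, and age-associated fibrosis of the ovary in C57BL/6 mice. The 3 conditions with cells in the files are young mice of 3 months without treatment, aged mice without drug, whose age in months the cell labels do not give, and aged mice of the prevention arm, which drank metformin at 350 mg/kg/day for 6 months from the age of 14 months. The design had 5 mice per group, and 3 ovaries of a group were joined in 1 suspension, so each condition is 1 sample and no test between conditions was possible. Suspensions were made in 30 min at 37 °C from ovaries cleaned of fat and oviduct, passed a 40 μm strainer and were flow-sorted; the sort gate is not described in the labels. Cells carried a condition barcode (MULTI-seq) and were run as 3 pools, A, B and C, each with all 3 conditions. The pools repeat the capture and not the mice, so their spread is technical. All intervals below are exact 95% intervals for counting error only.

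The OSE cells numbered 23 in the young, 21 in the aged and 37 in the metformin condition. They gave 85260, 93341 and 173574 UMIs (unique molecular identifiers, each standing for 1 captured transcript), with median UMIs per cell of 3798, 3585 and 4184. Single OSE cells ranged from 721 to 10701 UMIs. Over all classes, the median UMIs per cell were 5278 in the young, 3034 in the aged and 2752 in the metformin condition. Mitochondrially encoded genes took a median of 4.68% of the UMIs of an OSE cell and 2.51% of those of any cell. Across the pools 26 cell barcodes occurred more than once, and 0 of them belonged to OSE cells.

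The deposited name was checked against 16 markers of the mesothelium-like epithelium. All 16 were detected in the class, and their summed level was 9646 CPM (UMI count scaled by the summed UMIs of the cells) in OSE against 351 CPM in lymphatic endothelium, the next class. An OSE cell had UMIs of a median of 10 of the 16 markers, with a range of 4 to 16, and a cell of any other class had a median of 0 and a maximum of 6. Of 6 markers picked after their values were seen (Upk3b, Upk1b, Msln, Krt7, Krt19 and Lgals7), at least 3 were found in 79 of 81 OSE cells and in 2 of 14272 other cells. The heat map of marker genes by class shows the same separation gene by gene.

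**Figure D1:**
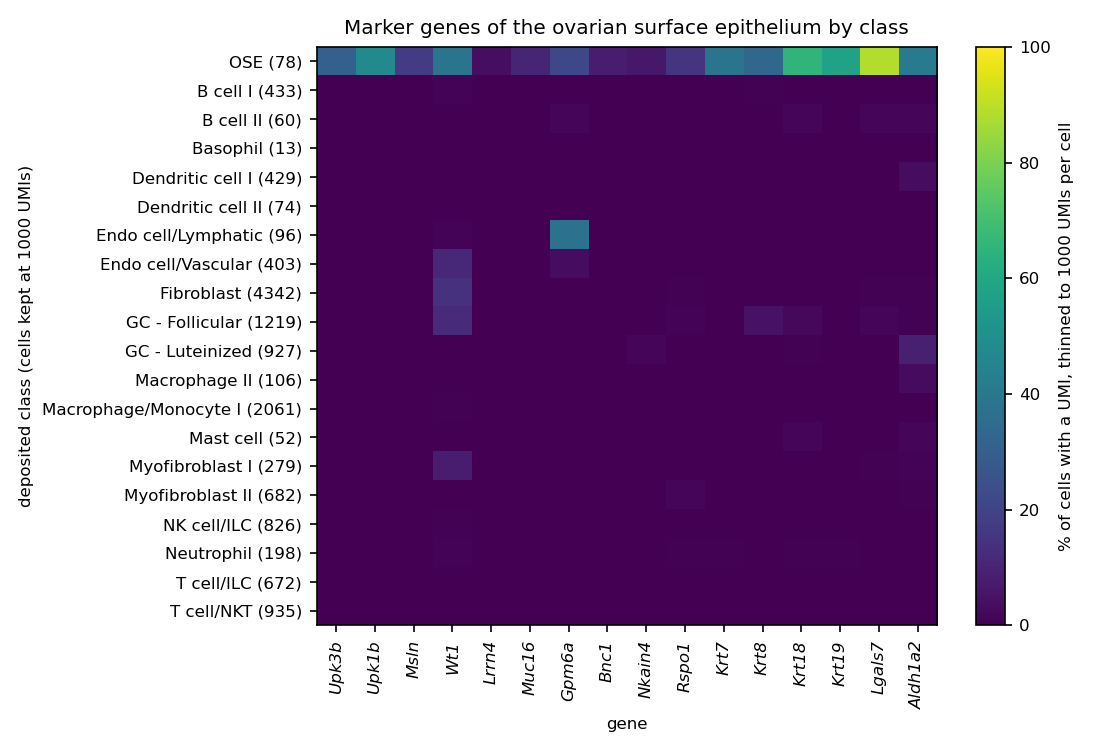
Share of cells (%) with a UMI of each of the 16 OSE markers (columns) in each deposited class (rows, with the number of cells that reached 1000 UMIs), after thinning every cell to 1000 UMIs. Most columns are bright only in the OSE row. Gpm6a is also seen in lymphatic endothelium, and Wt1 in fibroblasts, follicular granulosa cells, vascular endothelium and Myofibroblast I. Aldh1a2 is seen in 8.74% of luteinized and Krt8 in 4.84% of follicular granulosa cells.

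Ranked by level in OSE over the highest level in any other class, the leading gene was Upk3b (chr5:136038496-136046487, plus strand, GRCm38), a uroplakin of the mesothelial surface. It was at 469 CPM in OSE and at 0.108 CPM in all other cells together, a log2 ratio of 12.08 (interval 11.07 to 13.32). Upk3b was seen in 56.8% of OSE cells and in 0.119% of T cells, a class that should lack it, at median depths of 3816 and 1982 UMIs. Thinned to 1000 UMIs per cell, the shares were 30.8% and 0. Msln (chr17:25748613-25754378, minus strand), which encodes mesothelin, was at 244 CPM against 0.0811 CPM, a log2 ratio of 11.56 (10.37 to 13.04).

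The keratins of simple epithelia marked nearly every OSE cell. Krt19 was at 1124 CPM with a UMI in 75 of 81 cells, Krt18 at 1190 CPM in 74 cells, and Krt7 at 704 CPM in 61 cells. Lgals7 (chr7:28863853-28866284, plus strand), a galectin of epithelia, was at 2876 CPM and seen in 80 cells. Every OSE cell had a UMI of Epcam or of keratin 7, 8, 18 or 19. Epcam, an epithelial adhesion protein, was at 1902 CPM, and Cdh1, the E-cadherin of most epithelia, at only 45.4 CPM with UMIs in 15 cells.

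Further leading genes showed what the rule for the class did not name. They included the chloride channel Cftr (168 CPM), the steroid enzyme Hsd17b2 (463 CPM), the claudin Cldn3 (193 CPM) and the G protein subunit Gng13 (1831 CPM). Lgr5 was at 273 CPM in OSE and at 1.04 CPM in all other cells, a log2 ratio of 8.03 (7.58 to 8.48). Its ligand gene Rspo1 (chr4:124986430-125009099, plus strand), which encodes an R-spondin that strengthens Wnt signalling, was at 213 CPM. The gonadal transcription factors Lhx9 (531 CPM), Wt1 (412 CPM), Gata6 (304 CPM) and Emx2 (258 CPM) were all detected, as was Amhr2, the receptor for anti-Müllerian hormone (497 CPM).

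Defining markers of several other cell types had no UMI in OSE, and some listed markers of other types were clearly present. Ptprc, the pan-leukocyte gene, had no UMI in the 81 cells, and neither did Amh, Fshr, Myh11, Cd3e or Adgre1. The oviduct genes Ovgp1 and Sox17 and the cilia gene Foxj1 also had none. Of the same oviduct list, Emx2 was at 258 CPM in 45 OSE cells and Msx1 had 2 UMIs. That list summed to 264 CPM in OSE and to 232 CPM in vascular endothelium, the next class. The cilia list summed to 34.1 CPM in OSE, with UMIs of 3 of its 7 measured members. A count of 0 in the 352175 OSE UMIs allows a total of up to 3 UMIs. Among those present, Kctd14, listed here as a granulosa marker, was at 2882 CPM in 75 OSE cells, Dcn, listed for stromal fibroblasts, at 412 CPM in 42 cells, and Star, a steroidogenic gene of theca cells, at 301 CPM in 46 cells. Mbp (Schwann cell list) was at 111 CPM, Inha (granulosa) at 102 CPM, Xbp1 (plasma cell list) at 79.5 CPM and Kdr (blood endothelium) at 76.7 CPM. Pdpn, listed for lymphatic endothelium, was at 199 CPM, while Prox1, Lyve1 and Flt4 of that list were at 0.

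OSE took a larger share of the cells in both aged conditions than in the young one. It made up 0.302% of young cells (0.191 to 0.453), 0.705% of aged cells (0.437 to 1.08) and 0.986% of metformin cells (0.695 to 1.36). The aged share was 2.34 times the young share (1.23 to 4.41), with ratios of 1.22, 2.66 and 3.22 in pools A, B and C. Pool A was thus the pool in which the shares lay closest, with 5 young and 3 aged OSE cells. Shares of other classes moved too, with aged-to-young ratios of 1.67 for fibroblasts and 0.336 for follicular granulosa cells.

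Between metformin and aged cells the ratio of shares was 1.40 (0.797 to 2.51), an interval that includes 1. Pool A gave 4.68, and pools B and C gave 0.911 and 0.906, so the direction was not shared. Without pool A the ratio was 0.877 (0.449 to 1.74). As a share of non-immune cells alone, OSE stood at 0.506%, 1.13% and 2.08% in the young, aged and metformin conditions. On that denominator the metformin share was 1.84 times the aged share (1.05 to 3.32), and 6.56, 1.28 and 0.966 times in the 3 pools. Dissociation, straining and the sort can each set such shares, and their part was not tested.

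**Figure D2:**
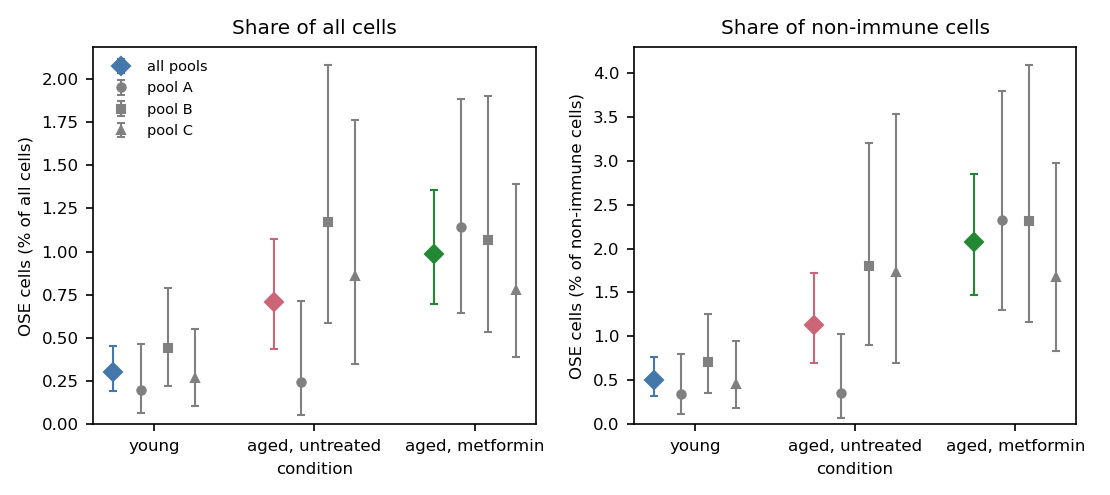
OSE cells as a share (%) of all cells (left) and of non-immune cells (right) by condition; coloured diamonds are all pools together, grey symbols single pools, and bars exact 95% Clopper-Pearson intervals. The aged diamond lies above the young one in both panels, and pool A is the lowest of the aged pools.

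Genes of the class were compared between conditions by the log2 ratio of summed CPM. A gene was called when the ratio was at least 2-fold and its interval excluded no difference. Of 545 genes with at least 50 UMIs over the young and aged OSE cells, 18 were called higher with age (3.3%) and 17 lower (3.12%), 6.42% in either direction. The median log2 ratio over these genes was 0.03.

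Immediate early genes were the largest group among the genes higher in aged OSE. They were 10 of the 18 genes called higher. Over the list of 25, 16 members had at least 20 UMIs, all 16 were higher in aged cells and 13 were called, where 3.63% of all 1652 genes at that minimum were called higher and 7.2% in either direction. The members' median log2 ratio was 1.70, a 3.24-fold difference, against 0.03 over all genes. Members already known from earlier results to move make this a description and not independent evidence.

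Fos (chr12:85473890-85477273, plus strand) encodes a subunit of the AP-1 transcription factor. Its level was 992, 2208 and 473 CPM in young pools A, B and C and 6400, 4623 and 5354 CPM in the aged pools. Every aged pool lay above every young pool. Summed over pools Fos was at 1419 CPM in young and 5089 CPM in aged OSE, a log2 ratio of 1.84 (1.55 to 2.14).

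Jun (chr4:95049034-95052222, minus strand), which encodes the partner of Fos in AP-1, was at 261, 1178 and 473 CPM in the young pools and 2578, 2201 and 2926 CPM in the aged pools. These ranges did not overlap either, and the log2 ratio was 1.71 (1.31 to 2.13). Junb was at 627, 294 and 118 CPM against 1689, 720 and 778 CPM (1.44, 0.79 to 2.12), again without overlap. Jund, which many cells express steadily, was at 809 CPM in young and 1543 CPM in aged OSE, a log2 ratio of 0.93 (0.51 to 1.37) that stayed under the 2-fold limit.

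Egr1 encodes a zinc finger factor of the growth response. It was at 365, 491 and 118 CPM in the young pools and at 2044, 841 and 2366 CPM in the aged pools, with a log2 ratio of 2.10 (1.53 to 2.72). Atf3, a stress-induced factor, was at 104, 589 and 0 CPM against 2044, 941 and 498 CPM. The young and aged pools of Atf3 overlapped, since young pool B exceeded aged pool C, and 1 cell held 69.2% of its 26 young UMIs.

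Dusp1, Zfp36, Btg2 and Klf6 were also called. Dusp1, a phosphatase that switches off MAP kinases, had 3 young and 43 aged UMIs, a log2 ratio of 3.71 (2.07 to 6.04). Zfp36, which speeds the decay of cytokine mRNAs, had 5 and 32 UMIs (2.55, 1.18 to 4.26). Btg2, an antiproliferative gene, was at 574, 442 and 158 CPM in the young pools and at 1511, 1501 and 872 CPM in the aged pools, which did not overlap. Klf6, a Krüppel-like factor, was at 117 CPM in young and 579 CPM in aged OSE (2.30, 1.31 to 3.44).

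Promoters of 3 called members are shown because each holds a sequence known from signal-induced genes. They are the 250 bases before the annotated start, in the direction of transcription, taken from RefSeq on GRCm38; capitals mark the match. The motifs were chosen after the result was known. In Btg2 (chr1:134079156-134079405, minus strand) TGACGTCA, the palindromic cyclic AMP response element, begins at position -166 from the start. In Dusp1 (chr17:26508473-26508722, minus strand) the same 8 bases begin at position -143. In Zfp36 (chr7:28379229-28379478, minus strand) a CArG box, the site known for serum response factor, begins at position -58.
Btg2: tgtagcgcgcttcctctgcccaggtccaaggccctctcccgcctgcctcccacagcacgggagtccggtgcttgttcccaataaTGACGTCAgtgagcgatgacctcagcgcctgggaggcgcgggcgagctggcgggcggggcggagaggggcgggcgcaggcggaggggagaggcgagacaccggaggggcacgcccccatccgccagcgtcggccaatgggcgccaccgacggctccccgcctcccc
Dusp1: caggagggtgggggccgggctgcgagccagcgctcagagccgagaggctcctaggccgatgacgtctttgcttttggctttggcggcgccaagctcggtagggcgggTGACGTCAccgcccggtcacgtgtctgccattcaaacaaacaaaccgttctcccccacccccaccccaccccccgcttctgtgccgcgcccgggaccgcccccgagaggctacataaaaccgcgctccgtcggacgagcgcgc
Zfp36: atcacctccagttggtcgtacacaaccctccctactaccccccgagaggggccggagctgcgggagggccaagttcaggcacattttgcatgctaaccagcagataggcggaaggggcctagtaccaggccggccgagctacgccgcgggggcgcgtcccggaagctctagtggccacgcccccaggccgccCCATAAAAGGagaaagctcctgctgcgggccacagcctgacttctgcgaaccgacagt
On both strands, TGACGTCA was found in 1.55% of 32851 promoter windows of this length, the CArG box in 1.47%, and TGANTCA, the AP-1 site, in 6.75%. Of the 25 genes of the list, 20 matched an entry of the promoter table, and Egr1, Egr3, Fosl1, Ier2 and Myc had none that was used. With the first window listed for each of the 20 genes, TGACGTCA was found in 2, the CArG box in 1 and TGANTCA in 0. Members that were not called also held matches in some of their windows, namely Egr2 (CArG box), Maff (TGACGTCA) and Csrnp1 (TGANTCA). The windows of the called members Fos, Fosb, Jun, Junb, Atf3, Klf2, Klf6 and Socs3 held no match, which says only that these letters are not in those windows.

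Immediate early UMIs varied widely between single OSE cells. They took a median of 0.299% of the UMIs of a young cell, with a range of 0.0831% to 3.13%, and 1.12% of those of an aged cell, with a range of 0.107% to 5.35%. Metformin cells had a median of 0.362% and reached 7.12%. The ranges of the 3 conditions overlapped over most of their length. By pool, the young medians were 0.996%, 0.448% and 0.119% in A, B and C and the aged medians 2.73%, 0.945% and 1.93%.

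**Figure D3:**
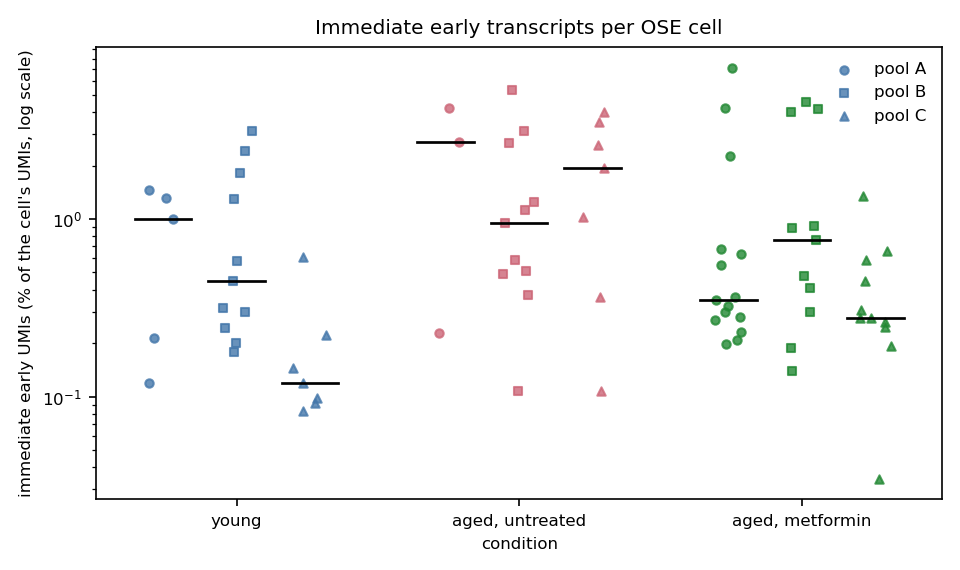
Share of a cell's UMIs (%, log axis) that came from the 25 immediate early genes, 1 symbol per OSE cell, by condition and pool; black lines are pool medians. Aged pools have medians from 0.945% to 2.73%, young pools from 0.119% to 0.996%, and single cells of all conditions overlap.

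Leaving out each pool in turn kept all 16 members higher in aged cells, with 12 to 14 called. The young cells of pool C were the lowest, and the median was 1.35 without that pool. A stricter set left out 32 OSE cells with UMIs of at least 2 markers of a single other cell type, 24 of them through granulosa markers. The granulosa list includes Kctd14, seen in 75 of 81 OSE cells, so 1 further listed marker removed most cells and need not mean another cell type. The set left out 13 of 23 young, 9 of 21 aged and 10 of 37 metformin cells. Young and aged cells thus fell below the minimum of 20 cells per condition set for comparing genes. In this stricter set 15 of 16 members were higher and 9 called, with a median of 1.11, and Fos was no longer called, at a log2 ratio of 0.76.

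Among 15 classes with enough cells, OSE had the largest median log2 ratio with age over these genes. The median was above 0 in 7 classes. T cell/ILC followed OSE at 1.17, vascular endothelium at 0.70, Myofibroblast II at 0.56, fibroblasts at 0.41, Myofibroblast I at 0.27 and T cell/NKT at 0.08. The medians of the other classes lay at or below -0.06, with follicular granulosa cells at -0.19 and luteinized granulosa cells lowest at -0.49. The difference between classes was not tested. In summed level, immediate early genes stood at 18995 CPM in aged OSE, which is below the 37105 CPM of aged fibroblasts. Stromal fibroblast markers summed to 328 CPM in young and 193 CPM in aged OSE, and the part of RNA from other cells in the result was not tested.

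**Figure D4:**
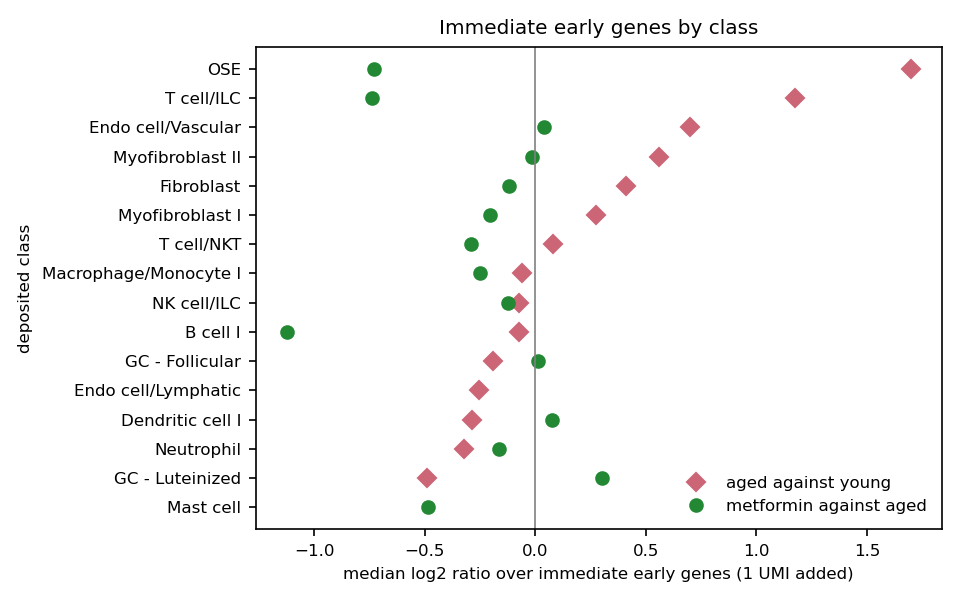
Median log2 ratio over immediate early genes with at least 20 UMIs in each deposited class, for aged against young (diamonds) and metformin against aged (circles), with 1 UMI added to each sum. OSE is at 1.70 in the first comparison and at -0.73 in the second; the 2 comparisons share the aged cells.

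Few genes outside that list were higher with age by the naming rule. Myl1, a myosin light chain gene, was at 152 CPM in young and 729 CPM in aged OSE (2.26, 1.39 to 3.24), and it had no UMI in aged pool A. Hspa8, a constitutive chaperone, was at 844 and 1671 CPM (0.98, 0.57 to 1.41), just short of a 2-fold difference; its pseudogenes make the count uncertain. In the heat shock list 8 of 10 members were higher and 1, Cryab, was called, beside 3.63% of all genes, with a list median of 0.30. Nuclear genes of oxidative phosphorylation were spread evenly, with 20 of 38 higher, 0 called and a median of 0.01.

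Most measured genes of antigen presentation and interferon response were lower in the summed UMIs of aged OSE. Of the interferon list, 13 members had at least 20 UMIs, 10 were lower and 6 were called lower, beside 3.57% of all genes at that minimum. Per cell, the list took a median of 0.502% of the UMIs in young and 0.460% in aged OSE. Single young cells reached 3.63% in pool B and 2.56% in pool C, and the highest aged cell was at 1.28%. All 4 measured members of MHC class I and all 4 of MHC class II were lower, with 1 called in each and medians of -0.77 and -0.94. MHC genes are polymorphic and near-identical to one another, and reads may have been split between them.

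Cd74, the invariant chain of MHC class II, was at 783, 1399 and 631 CPM in the young pools and at 0, 540 and 187 CPM in the aged pools. Every young pool lay above every aged pool, and the log2 ratio was -1.55 (-2.17 to -0.95). Markers of cell types that present antigen with MHC class II were summed in young and aged OSE. The dendritic cell list gave 82.1 and 10.7 CPM, all from Zbtb46, with Flt3, Xcr1, Clec9a, Cd209a and Itgax at 0. Among the other classes Zbtb46 was highest in vascular endothelium. B cell markers summed to 11.7 and 0 CPM. Macrophage markers summed to 23.5 and 96.4 CPM, with Adgre1, Csf1r, Cd68 and Mrc1 at 0. The part of antigen-presenting cells in the result was not tested. H2-K1, a classical class I heavy chain, was at 313, 1104 and 1341 CPM against 444, 400 and 654 CPM (-1.02, -1.57 to -0.48), with pool A in the opposite direction.

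The median of the interferon list rested on pool B, though Gbp2 was lower in every pool. Iigp1, an interferon-induced GTPase, was at 209, 908 and 158 CPM in the young pools and at 0, 120 and 249 CPM in the aged pools (-1.82, -2.80 to -0.92), and 1 young cell held 48.9% of its young UMIs. Without pool B, 6 of 13 members were lower, 1 was called lower and 2 higher, and the median was 0.037. The chemokine gene Cxcl10 had 25 UMIs in young OSE and 1 in aged OSE, and all 25 young UMIs came from pool B. MHC class I also moved, to a median of -0.13 without pool B, while MHC class II was at -0.55. Without the cells that carried markers of another type, 7 of the 13 interferon genes were lower and 2 called lower.

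Other classes differed in these genes. In fibroblasts H2-K1 had a log2 ratio of 0.84 with age (0.77 to 0.90), Cd74 one of 0.54 (0.42 to 0.65) and Gbp2 one of 0.89 (0.70 to 1.08), all opposite in sign to OSE. In follicular granulosa cells H2-K1 was at 1.34 (1.15 to 1.54), while Cd74 was at -1.59 (-2.17 to -1.06) and Iigp1 at -2.09 (-5.16 to -0.19), the same sign as in OSE. The difference between classes was not tested. In OSE, Gbp2, a guanylate-binding protein gene, was at 586 CPM in young and 182 CPM in aged cells (-1.69, -2.57 to -0.87).

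Most measured surface genes of the mesothelium were lower with age, while their summed level differed little. In the list of surface coat genes and mucins 9 of 10 measured members were lower and 3 called, beside 3.57% of all genes called lower, with a median of -0.73. Upk3b itself was at 633 CPM in young and 396 CPM in aged OSE (-0.68, -1.32 to -0.05), and Upk1b at 915 and 632 CPM (-0.53, -1.05 to -0.03). Neither reached a 2-fold difference. Gpm6a, a membrane glycoprotein gene, was at 422 and 150 CPM (-1.49, -2.50 to -0.57). Lgals7 was the 1 member higher, at 2569 and 3568 CPM (0.47, 0.22 to 0.73). The whole list summed to 6721 CPM in young and 6203 CPM in aged OSE. By pool it summed to 6056, 6870 and 6982 CPM in young and 8178, 6864 and 4483 CPM in aged OSE. The list median was -0.39 without pool C and -0.09 in cells thinned to 1000 UMIs, and 0 members were called without the cells that carried markers of another type.

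Rspo1 and Lgr5 were also lower with age. Rspo1 was at 365, 442 and 276 CPM in the young pools and at 88.9, 60.0 and 218 CPM in the aged pools, without overlap, a log2 ratio of -1.67 (-2.81 to -0.65). Lgr5 was at 313, 294 and 868 CPM against 267, 280 and 218 CPM (-0.87, -1.66 to -0.10), with most of the difference in pool C. Wnt4 and Wnt6, the Wnt ligands of the list with most UMIs, were at 270 and 317 CPM in young and 289 and 332 CPM in aged OSE. Over the Wnt and R-spondin list 5 of 28 genes had enough UMIs, 2 were higher, 3 lower and 1, Rspo1, was called lower, beside the same 3.57%.

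Crip1 and Igfbp5 had the most UMIs among the remaining named genes that were lower. Crip1, a LIM-domain gene (chr12:113146316-113153879, plus strand), was at 3707, 1080 and 4418 CPM in the young pools and at 800, 740 and 934 CPM in the aged pools (-1.71, -2.10 to -1.33). Igfbp5, which encodes an IGF-binding protein, was at 3289, 2356 and 4497 CPM against 889, 1821 and 1090 CPM (-1.14, -1.44 to -0.83). Neither gene's pools overlapped. Timp2, a metalloproteinase inhibitor gene (-1.45, -2.33 to -0.64), and Serping1, the C1 inhibitor gene (-1.47, -2.37 to -0.63), were lower in every pool, though Timp2 was nearly equal in pool A, at 313 and 267 CPM. Bsg, at 1736 CPM in young and 846 CPM in aged OSE, and Ifitm3, at 1525 and 761 CPM, were lower over all pools but higher in pool A, and Ifitm3 has close relatives that may share its reads. Igfbp6 (-0.97, -1.52 to -0.44) was nearly equal in pool A, at 365 and 356 CPM. Cst6, a cystatin gene, was called lower with 73.7% of its young UMIs in 1 cell, and stood at 0.24 without that cell.

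**Figure D5:**
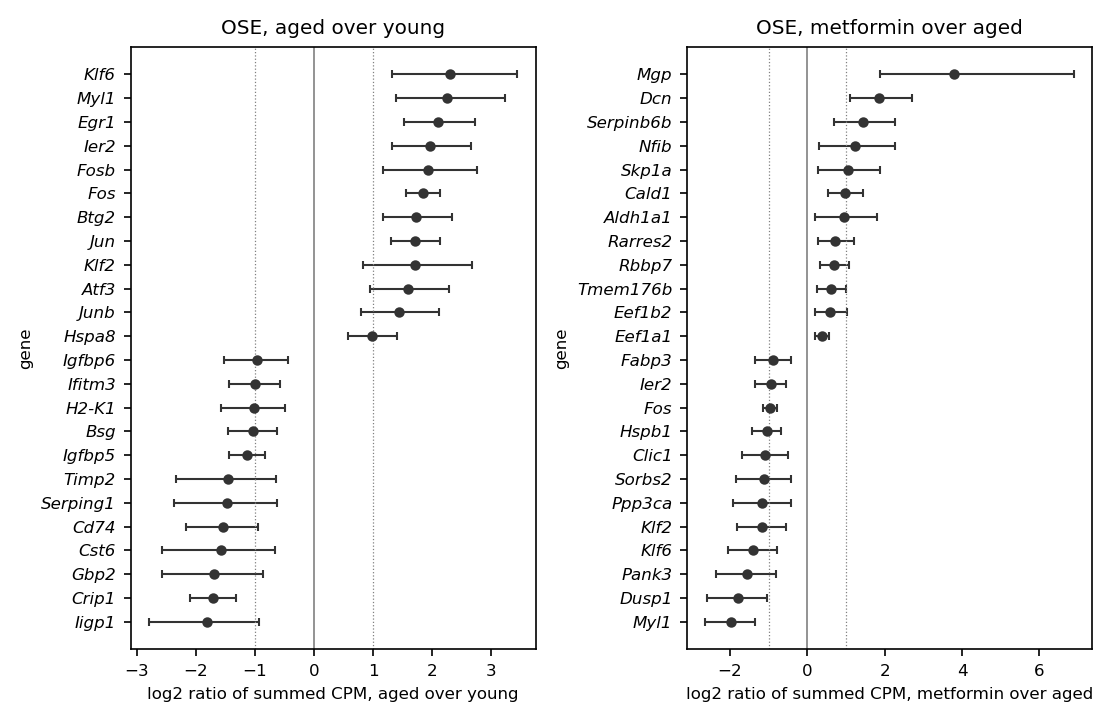
Log2 ratio of summed CPM in OSE with its exact 95% interval for the 24 genes named in each comparison, aged over young (left) and metformin over aged (right); dotted lines mark 2-fold. Immediate early genes fill most of the upper left panel, and Fos, Ier2, Klf2, Klf6, Dusp1 and Myl1 lie in the lower part of the right panel.

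Metformin against aged OSE gave fewer called genes. Of 881 genes with at least 50 UMIs, 8 were called higher (0.908%) and 14 lower (1.59%), 2.5% in either direction, and the median log2 ratio was -0.01. The aged cells are the same as in the comparison with age, so values opposite to that comparison are not independent of it.

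Immediate early genes were lower in metformin OSE. With 1 UMI added, all 17 members with at least 20 UMIs were lower, 4 were called, beside 2.71% of 2471 genes called lower at that minimum, 1.38% called higher and 4.09% in either direction, and the median was -0.73. Fos was at 6400, 4623 and 5354 CPM in the aged pools and at 1774, 4139 and 1100 CPM in the metformin pools. No metformin pool reached an aged one, and the log2 ratio was -0.96 (-1.15 to -0.77), short of 2-fold. The 4 called members were Dusp1 (-1.80, -2.60 to -1.03), Ier3 (-1.92, -2.56 to -1.29), Klf6 (-1.40, -2.04 to -0.78) and Klf2 (-1.18, -1.81 to -0.56). Atf3 and Jund were at -0.12 and -0.01, with intervals that included 0.

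The pools differed in this comparison. The summed level of immediate early genes was 25867, 17431 and 19021 CPM in aged pools A, B and C and 9714, 17571 and 4778 CPM in the metformin pools. Pool B thus showed no difference. Without pool B, 16 of 17 members were lower and 14 were called, with a median of -1.72. Without pool A, which held 3 aged cells, 13 were lower, 2 were called lower and 1 higher, and the median was -0.44. The summed level of metformin OSE, 12081 CPM, lay between the 18995 CPM of aged and the 5923 CPM of young OSE.

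Other genes lower with metformin included Hspb1 and Myl1. Hspb1, a small heat shock protein gene, was at 1689, 1021 and 1681 CPM in the aged pools and at 689, 552 and 721 CPM in the metformin pools, without overlap (-1.05, -1.44 to -0.67). Myl1 stood at 184 CPM with metformin, against 729 CPM in aged OSE (-1.98, -2.64 to -1.36). Without pool B its log2 ratio was -0.58. Pank3, a coenzyme A synthesis gene, was lower in every pool (-1.57, -2.36 to -0.82). Clu, an extracellular chaperone gene that the naming rule did not take, was called lower (-1.28, -1.61 to -0.95), and its aged level was 800, 660 and 4296 CPM in pools A, B and C.

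Genes higher with metformin were led by Dcn and Mgp, which stromal fibroblasts express strongly. Dcn (chr10:97479609-97518143, plus strand), which encodes the matrix proteoglycan decorin, was at 88.9, 160 and 218 CPM in the aged pools and at 702, 697 and 190 CPM in the metformin pools. It was higher in pools A and B and not in C, with a log2 ratio of 1.86 (1.10 to 2.72). The share of OSE cells with a Dcn UMI did not rise, at 52.4% of aged and 48.6% of metformin cells. Mgp (chr6:136872435-136875823, minus strand), which encodes matrix Gla protein, had 2 UMIs in aged and 52 in metformin OSE (3.81, 1.88 to 6.89), and 1 cell held 57.7% of the latter. Of the fixed list of 10 stromal fibroblast markers, which includes Dcn, 7 had a UMI in OSE and Mfap4, Dpt and Pdgfrl were at 0. The list summed to 328 CPM in young, 193 CPM in aged and 876 CPM in metformin OSE, from 160 to 1060 CPM over pools and conditions, and to 8045 CPM in fibroblasts. Its part in the Dcn and Mgp results was not tested. In fibroblasts the metformin log2 ratios were 0.00 for Dcn (-0.03 to 0.02) and 0.02 for Mgp (-0.01 to 0.05).

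In the senescence list, 4 of 8 measured members were higher with metformin and 4 lower, with a median of -0.04, 2 called higher and 1 lower. Of all genes at that minimum, 1.38% were called higher and 2.71% lower. Igfbp7, which encodes an IGF-binding protein-related factor, had 3 UMIs in aged and 37 in metformin OSE (2.73, 1.07 to 5.07), and Cdkn1c, a cell cycle inhibitor gene, 5 and 26 (1.48, 0.08 to 3.22). Both rest on 5 or fewer aged UMIs. Over all conditions, 39 Igfbp7 UMIs lay in 5 cells of the group of 23 described below, and 4 in the other OSE cells. Cdkn1a, another cell cycle inhibitor gene, was called lower, with 21 aged and 15 metformin UMIs (-1.38, -2.44 to -0.36), and 1 cell held 81.0% of the former. Serpinb6b, a protease inhibitor gene, was at 0, 220 and 218 CPM in the aged pools and at 587, 508 and 379 CPM in the metformin pools, which did not overlap (1.44, 0.70 to 2.26). Aldh1a1, a retinoic acid-forming enzyme gene, was at 193 and 374 CPM (0.96, 0.19 to 1.80), and at -0.43 without the cells that carried markers of another type.

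Antigen presentation and surface coat genes had medians near 0 with metformin. MHC class I had 3 of 6 members higher and a median of 0.07, MHC class II 2 of 4 and 0.04, and surface coat genes 5 of 11 and -0.02, with 0 called in each. Without pool B all 6 MHC class I members were lower, with a median of -0.43. Interferon genes had 8 of 12 lower, with a median of -0.54. In that list 3 were called lower and 1 higher, beside 2.71% and 1.38% of all genes at that minimum. Of the 28 genes of the AMPK and mTOR list, whose pathway metformin is known to engage, 2 had at least 20 UMIs and 0 were called. Rheb, an activator of mTOR, stood at 179 CPM with metformin, against 257 CPM in aged OSE (-0.53, -1.34 to 0.31). Collagen and matrix genes had 4 of 30 members with enough UMIs, all higher with metformin. Dcn was the 1 called, beside the same 1.38% of all genes called higher.

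OSE cells also varied among themselves. Clustering the 81 cells alone gave 3 groups of 31, 27 and 23 cells with median depths of 3251, 4303 and 4320 UMIs, each with cells of every pool. The genes that define such groups describe them and test nothing. The group of 27 was led by Lrrn4, Ifit1, Slpi, Cst6, Aldh1a1, Isg15 and Msln, and its surface coat genes summed to 7572 CPM against 5049 CPM in the other OSE cells. The group of 23 was led by genes that included Atf3, Icam1, Sparcl1 and Igfbp7. Its immediate early genes summed to 26743 CPM against 4713 CPM, and its stromal fibroblast markers to 974 CPM against 341 CPM. The group of 31 was led by Slc16a9, Orai1 and C3, and its OSE markers summed to 9367 CPM, close to the 9768 CPM of the other OSE cells. The group of 23 held 3 of 23 young, 10 of 21 aged and 10 of 37 metformin cells. Since immediate early genes helped to define it, these numbers are no result separate from the difference in those genes. All 3 groups kept the OSE markers, and none was given a name of its own.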

How the data were processed

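Cells of 3 pools of mouse ovary were profiled with 10x 3' v3 kits and MULTI-seq barcodes, per the labels' protocols. Per the submitters' processing notes, reads were processed with Cell Ranger 3.0.2 on GRCm38 (mm10). The authors deposited 1 table of raw UMI counts for 18789 genes in 14353 cells and a cell table with condition, pool, mitochondrial percent and class name. The lowest UMI total of a deposited cell is 500, and the sources do not say whether doublets were removed earlier; no doublet caller was run, and cells with markers of another type were left out in an alternative.

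UMI counts were summed over OSE cells per condition and divided by their total (CPM). No test was made, since each condition is 1 suspension; ratios carry exact 95% conditional intervals and shares Clopper-Pearson intervals, both for counting error only. Genes needed 50 UMIs over both conditions, list members 20, and list medians used 1 added UMI. OSE cells alone were clustered with Leiden at a resolution of 0.5. Named genes were the 12 highest and 12 lowest per comparison by the interval bound nearest 0, with the bound beyond 0 and the sign shared by every pool with at least 10 OSE cells of both conditions (pool B). Haemoglobin, ribosomal protein and mitochondrial genes, Xist, Malat1, unnamed gene models and the top 20 genes of any other class were not named; list members were named by their UMIs. Other genes described, such as Clu and Cxcl10, were chosen by list membership or after their values were seen. The class, the lists and the tests were chosen with earlier results of these data known. The interval and call rule were tested on simulated counts drawn independently for each gene, the model that the interval assumes. The simulation held no concentration of UMIs in single cells, so it cannot show how the rule behaves there. Alternatives left out single pools or cells, changed minimum, scaling and depth. Python 3.11.15, numpy 2.4.6, scipy 1.17.1, pandas 2.3.3 and scanpy 1.11.5 were used. Gene positions are from GENCODE on GRCm38 and promoters from RefSeq on the same build. Results for some genes are not reported here.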

Additional observations from a re-analysis of the deposited data

Results flagged for a closer look

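In 8 of the 48 named values every pool of OSE lay on one side of 0 and every pool of fibroblasts on the other, with 1 UMI added to each pool's sum. The OSE side was partly set by the naming rule, which took intervals beyond 0 and the sign of pool B. How many of all genes would meet the same criterion was not counted. The difference between the classes was not tested, and the pools are technical repeats, of which aged pool A held 3 OSE cells; Timp2 differed there by only -0.04. With age these were Hspa8 (0.98 in OSE and -0.11 in fibroblasts, as log2 ratios over all pools), Cd74 (-1.55 and 0.54), Gbp2 (-1.69 and 0.89), Timp2 (-1.45 and 0.39) and Serping1 (-1.47 and 0.70). Between metformin and aged cells they were Rbbp7 (0.70 and -0.26), Eef1b2 (0.60 and -0.07) and Ppp3ca (-1.17 and 0.13).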

How the results depend on the processing

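With 1 suspension per condition and 21 to 37 OSE cells, all differences describe these suspensions, and genes under 50 UMIs were largely out of reach. No paired analysis was possible because each condition is 1 suspension and no test was made. All 18 alternative ratios of shares stayed within the main interval. Counts of called genes depended on depth. Higher and lower with age they were 122 and 142 with no minimum, 7 and 8 at 100 UMIs and 5 and 3 after thinning to 1000 UMIs; leaving out a pool gave 12 to 19 higher and 6 to 21 lower, and leaving out cells with markers of another type left 10 lower. Higher and lower with metformin they were 81 and 177, 2 and 5, and 2 and 2; leaving out a pool gave 7 to 10 higher and 9 to 11 lower, and leaving out cells with other markers gave 13 and 7. The number of OSE sub-clusters was 2 at a resolution of 0.3 and 5 at 0.8. Among called genes and list medians of at least 0.5 in size, signs turned for Iigp1 with age (-2.80 to 0.037 leaving out a pool, positive without B; 0.14 without cells with other markers), Cst6 (0.24 without its top cell) and the medians of interferon genes with age (-1.45 to 0.037, positive without B), and with metformin for retinoid genes (0.86 to -0.42 after thinning) and TGF-beta and BMP genes (-0.52 in all pools, -0.79 to 0.22 leaving one out, positive without C); the causes were not tested. Of the 48 named values, 44 kept their sign under every alternative; beside Iigp1 and Cst6, Aldh1a1 (-0.43 without cells with other markers) and Tmem176b (-0.31 after thinning) did not. Many list medians nearer 0 also changed sign, among them MHC class I with metformin (0.07 to -0.43 without pool B).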

Other observations

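In each of the 3 conditions OSE carried transcripts of genes usually placed in other gonadal cells. Kctd14 was at 2404, 3675 and 2691 CPM in young, aged and metformin OSE, Star at 211, 321 and 334 CPM, and Amhr2 at 493, 568 and 461 CPM. Sox9, best known from the testis, was at 129, 204 and 161 CPM, with UMIs in 32 of 81 cells. The defining granulosa genes Amh, Fshr and Cyp19a1 and the theca gene Insl3 had no UMI in any OSE cell.

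Levels of single epithelial junction genes differed between conditions. Cldn3 was at 141, 246 and 190 CPM and Cldn7 at 35.2, 129 and 46.1 CPM in young, aged and metformin OSE. Cldn7 rests on 23 UMIs in all, seen in 3, 6 and 6 cells. In the junction and polarity list 5 of 8 measured members were higher with age and 3 lower, with a median of 0.10. None of them was called, beside 7.2% of all genes in either direction. Epcam was at 2545, 2014 and 1527 CPM. The tetraspanin gene Cd9 was at 962, 718 and 415 CPM in the same order.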
